A study of Mus musculus with 6 samples.

Results

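The Eph receptors and their ephrin ligands, the Slits and their Robo receptors, and the netrins with the DCC and UNC5 receptors were described across 6 libraries of newborn mouse cortex. The 38 genes were taken by name from 52550 gene identifiers in the count tables. The rule uses no measured value, but it was written with earlier results of these data known. They are 15 ligand genes and 23 receptor genes, and 35 of them had enough counts to be tested, among 14913 genes tested in all. The knockout group was Slc7a5fl/fl; Emx1Cre+ (n = 3) and the control group Slc7a5fl/fl; Emx1Cre- (n = 3), both of strain C57BL6/J at postnatal day 2. Each library held polyadenylated RNA of 1 cortical hemisphere. All pups carried floxed Slc7a5 alleles, and Cre was present in the knockouts alone, so the presence of Cre and the deletion cannot be told apart. The protein made from Slc7a5 is LAT1, which carries large neutral amino acids into cells. Cre under Emx1 control acts in dorsal forebrain progenitors, whose offspring include cortical excitatory neurons and astrocytes, and spares microglia, vessels and most interneurons. The titles mark the libraries of each genotype with the letters A, B and C, whose meaning the labels do not give.

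These families steer growing axons and migrating neurons. Ephrins are bound to the membrane, the ephrin-A proteins by a lipid anchor and the ephrin-B proteins by a transmembrane segment, and they signal on contact to Eph receptor tyrosine kinases, with a reverse signal into the ligand-bearing cell. Slits are secreted repellents read by Robo receptors, and netrin-1 is a secreted cue that attracts through DCC and repels through UNC5 receptors. In the developing cortex these systems act in the ordering of thalamocortical projections, in the crossing of callosal axons and in the radial and tangential migration of neurons.

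Promoter sequences of the 5 ephrin-A genes are shown because their values all lay on the same side of the comparison below, while their levels differed widely and 3 of them are neighbours on chromosome 3. Each runs 5′ to 3′ on the strand of its gene, from 250 bases before to 50 after the RefSeq start on GRCm38.p6, and capitals mark the dinucleotide CG. The windows are chr3:89280902-89281201 on the minus strand for Efna1, chr10:80179232-80179531 on the plus strand for Efna2, chr3:89322890-89323189 on the minus strand for Efna3, chr3:89337979-89338278 on the minus strand for Efna4 and chr17:62881268-62881567 on the minus strand for Efna5.
Efna1: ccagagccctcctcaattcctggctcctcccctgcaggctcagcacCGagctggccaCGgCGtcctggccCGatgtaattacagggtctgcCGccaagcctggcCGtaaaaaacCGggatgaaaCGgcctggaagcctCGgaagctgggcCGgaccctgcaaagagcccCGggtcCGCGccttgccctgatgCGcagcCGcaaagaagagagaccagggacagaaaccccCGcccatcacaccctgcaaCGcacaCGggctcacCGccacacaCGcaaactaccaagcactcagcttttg
Efna2: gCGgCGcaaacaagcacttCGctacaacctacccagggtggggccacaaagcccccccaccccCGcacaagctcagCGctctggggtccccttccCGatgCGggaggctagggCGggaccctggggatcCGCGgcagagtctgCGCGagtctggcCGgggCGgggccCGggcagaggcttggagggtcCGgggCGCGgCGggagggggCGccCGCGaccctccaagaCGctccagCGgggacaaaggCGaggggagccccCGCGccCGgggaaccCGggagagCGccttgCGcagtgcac
Efna3: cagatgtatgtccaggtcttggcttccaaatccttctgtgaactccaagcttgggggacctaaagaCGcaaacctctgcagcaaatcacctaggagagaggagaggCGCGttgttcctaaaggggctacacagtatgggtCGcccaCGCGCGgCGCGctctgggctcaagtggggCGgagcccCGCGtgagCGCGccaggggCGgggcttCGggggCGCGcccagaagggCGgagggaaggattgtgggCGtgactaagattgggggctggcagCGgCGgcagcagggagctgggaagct
Efna4: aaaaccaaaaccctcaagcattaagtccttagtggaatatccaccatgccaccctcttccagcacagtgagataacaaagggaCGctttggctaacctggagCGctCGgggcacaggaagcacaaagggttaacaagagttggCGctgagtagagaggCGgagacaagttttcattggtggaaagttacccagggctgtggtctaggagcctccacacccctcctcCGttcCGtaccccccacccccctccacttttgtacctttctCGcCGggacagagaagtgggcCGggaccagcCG
Efna5: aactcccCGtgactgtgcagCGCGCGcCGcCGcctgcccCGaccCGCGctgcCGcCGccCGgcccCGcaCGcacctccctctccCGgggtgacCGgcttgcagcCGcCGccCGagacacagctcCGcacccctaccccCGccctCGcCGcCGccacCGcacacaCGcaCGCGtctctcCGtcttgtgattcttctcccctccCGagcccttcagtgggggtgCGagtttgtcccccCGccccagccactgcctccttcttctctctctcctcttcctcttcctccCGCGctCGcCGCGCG

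Efna5 held 38 CG dinucleotides in these 300 bases, Efna2 31, Efna3 22, Efna1 20 and Efna4 11. The order does not follow the levels given below, where Efna2 stood highest and Efna1 lowest. CG reads the same on both strands, and 94.6% of the 32851 RefSeq promoter windows of this length hold at least 1. A window with 10 or more CG was found for 32 of the 33 guidance genes that matched the table, Ntng2 being the exception with 6, and for 43.5% of all windows. The letters TATAAA, searched on both strands, stood in 2 guidance promoters, those of Efnb2 and Slit2, and in 13.6% of all windows. Efnb3, Slit1, Ntn1, Dcc and Unc5d had no matching entry.

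Gene counts were 9524407 to 10372582 in knockout libraries and 8249436 to 10077443 in control libraries, and 3 counts, the floor used here, correspond to 0.278 to 0.372 CPM, the counts scaled to a common library size with TMM factors. Slc7a5 itself had 15.6, 9.37 and 11.4 CPM in knockouts A, B and C, against 20.2, 40.7 and 26.1 CPM in controls A, B and C. The groups did not overlap, with a log2 change of -1.25 that missed the threshold (edgeR's quasi-likelihood test, Benjamini-Hochberg adjusted p = 0.400, and 0.421 with the letter as a block) but passed it in DESeq2 (adjusted p = 0.000695). The bulk value also holds any transcript from cells that Cre spares, and that part was not measured. The inactive X transcript Xist was at 961 CPM in knockout B and 918 CPM in control B, and at most 2.95 CPM elsewhere. Letter B thus stood apart from A and C in this marker of female cells, in both genotypes. The part of sex in the other letter B values was not tested. Reads outside exons were 27.4 to 27.9% of mapped reads in knockouts and 22.5 to 26.5% in controls, and their part in any result was not tested.

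Of the 35 guidance genes tested, 0 passed an adjusted p of 0.05 in edgeR's quasi-likelihood test, where 0.0335% of all tested genes did. The count was also 0 of 35 with the letter as a block, where 0.845% of all genes passed. By DESeq2 it was 0 too, where 0.139% of the 18685 genes given an adjusted p passed. An unadjusted p under 0.05 was reached by 5 guidance genes, or 14.3% of those tested, against a background of 7%. Slit1 and Ntn1 had the higher values in knockouts among these, and Unc5c, Ephb6 and Efna3 the lower ones. With the letter as a block the unadjusted count was 12, or 34.3%, against 11.9% of all genes. These 12 were Epha3, Epha5, Epha8, Ephb3, Ephb6, Efna2, Efna3, Slit1, Robo1, Ntn1, Unc5a and Unc5c. By DESeq2 the count was 2 of the 35, against 3.06% of the 25648 genes given a p. DESeq2 was run without the filter on low counts, so its shares cover more genes of low count. The smallest adjusted p was 0.599 in edgeR without a block, 0.0790 with the block, both for Unc5c, and 0.903 in DESeq2.

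Fitted log2 changes ran from -0.58 for Robo3 to 0.52 for Ntn1, with 17 genes higher and 18 lower in knockouts. Their median was -0.023, against 0.0011 over all genes tested, and the median size of the change was 0.17 on the log2 scale, against 0.13 over all genes. Ligands had a median of 0.0023 with 7 higher and 7 lower, and receptors a median of -0.11 with 10 higher and 11 lower. These medians rest on single libraries, for leaving out control B gave a receptor median of -0.016, and leaving out knockout B gave -0.022 for receptors and -0.12 for ligands. The precision allowed a bound on most of them. For 22 genes, 62.9%, the 95% interval lay inside a 1.5-fold change in either direction, against 61.9% of all genes tested. The 13 whose interval reached past 1.5-fold were Epha6, Ephb3, Ephb4, Ephb6, Efna1, Slit3, Robo1, Robo3, Ntn1, Ntn4, Dcc, Unc5a and Unc5c. With the letter as a block, the intervals of Ephb3, Robo1 and Unc5c lay inside it too. In these bulk samples, fewer cells of a type and less RNA per cell cannot be told apart.

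**Figure D1:**
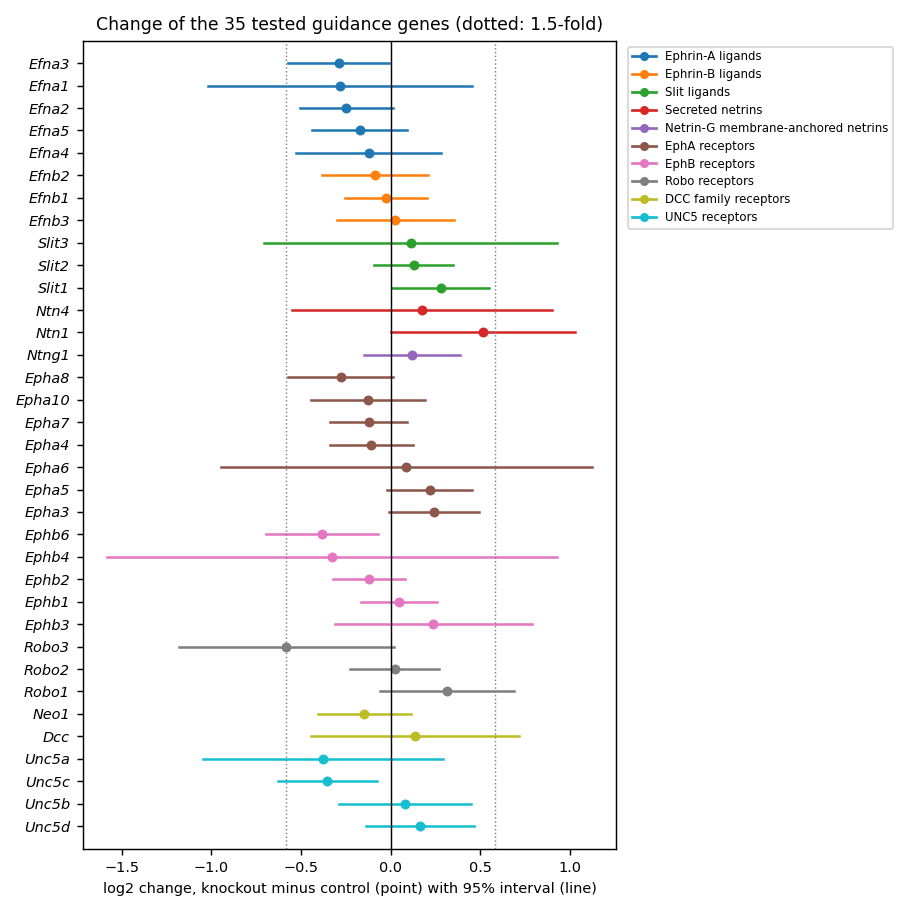
Fitted log2 changes (knockout over control, x axis) of the 35 tested guidance genes with 95% intervals from edgeR's quasi-likelihood fit, grouped by family. The points lie between -0.58 for Robo3 and 0.52 for Ntn1, and 22 of the intervals stay inside 1.5-fold.

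The guidance transcripts of the newborn cortex were led by a few genes when counted per kilobase of exon. Efnb3 stood highest, at a mean of 122 CPM per kilobase over the 6 libraries and a range of 101 to 151. Efna2 followed at 63.0 CPM per kilobase and the receptor Neo1 at 52.7 CPM per kilobase, and their library ranges overlapped. Epha4 came next at 21.2 CPM per kilobase, with a range that lay wholly below that of Neo1. Between 18.4 and 14.4 CPM per kilobase stood Ephb1, Efnb1, Epha5, Efna3 and Epha7, in this order. Efnb2, Unc5a, Robo2, Ephb2, Ephb6, Efna5, Slit1, Epha3, Ephb3, Efna4 and Epha8 lay between 9.92 and 5.19 CPM per kilobase. Ntng1, Unc5c, Unc5d, Epha10, Unc5b, Robo1 and Slit2 lay between 4.39 and 2.31 CPM per kilobase. Below 1 CPM per kilobase stood Efna1, Ephb4, Ntn1, Ntn4, Robo3, Dcc, Slit3, Epha6 and the 3 untested genes Epha2, Epha1 and Ntng2. Of the 37 pairs of neighbours in this order, 32 had overlapping library ranges, and those without overlap were the steps below Efnb3, Neo1, Epha7, Slit2 and Epha6. The order also depends on the length used. Per kilobase of the longest coding transcript Epha5 stood at 36.6 CPM, above Ephb1 at 27.5 and Epha4 at 27.0 CPM. On that scale Robo2 at 15.0 and Efnb2 at 14.2 CPM came next below Efna3, and Slit2 at 5.90 CPM stood above Efna4 at 5.45 CPM. Efnb3, Efna2 and Neo1 led in this order on both scales, and 13 of the 38 genes held the same rank. Either scale takes reads to be spread evenly along the length used, which was not tested. Without division by length, Neo1 averaged 436 CPM in knockouts and 483 CPM in controls, above Efnb3 at 391 and 384 CPM. Epha5, at 288 and 248 CPM, then stood above Efna2, at 123 and 146 CPM.

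**Figure D2:**
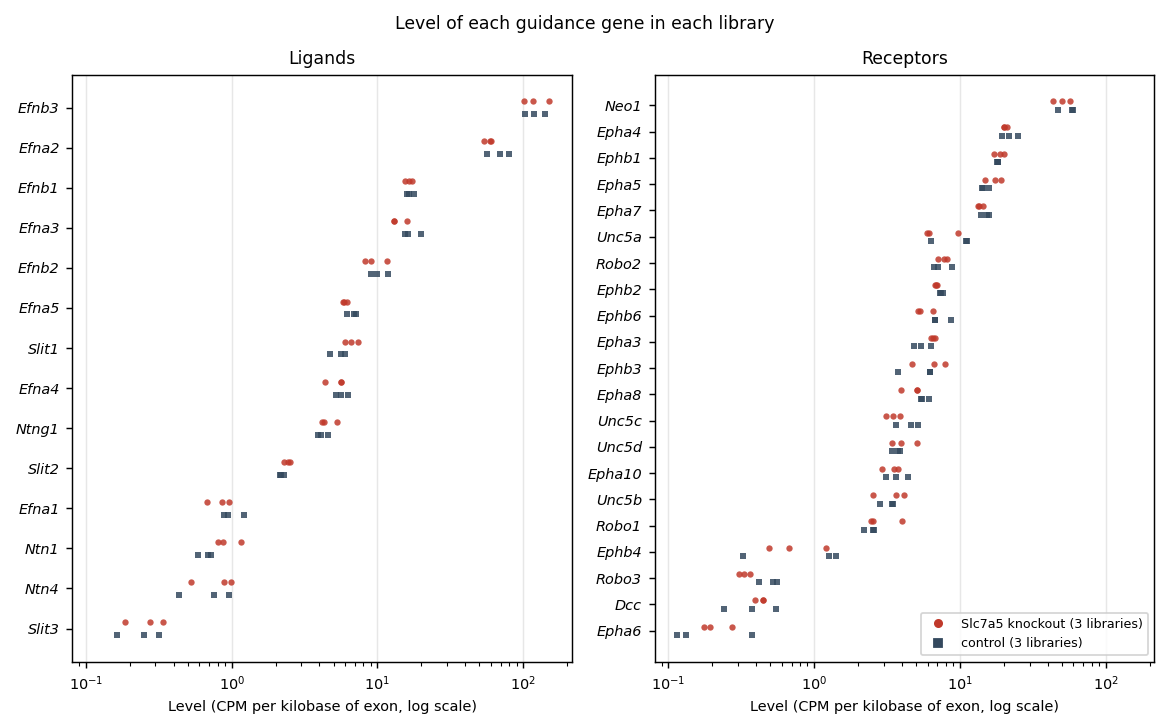
Level of each tested guidance gene in CPM per kilobase of exon (log axis) in every library, knockout and control, in order of mean level within ligands and receptors. Efnb3 leads the ligands at a mean of 122 CPM per kilobase and Neo1 the receptors at 52.7 CPM per kilobase.

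Among ligands, Efnb3 made up 49.2% ± 5.20 of the summed CPM per kilobase in knockouts and 46.3% ± 3.97 in controls (SD, n = 3 each). Efna2 made up 23.4% ± 3.45 in knockouts and 26.2% ± 2.69 in controls. Among receptors, Neo1 held 27.1% ± 3.08 of the summed CPM per kilobase in knockouts and 28.6% ± 3.24 in controls. Each of these shares differed between genotypes by less than its SD among knockouts. The sum over all 38 genes was 2573, 2676 and 2593 CPM in knockouts A, B and C, against 2596, 2695 and 2728 CPM in controls A, B and C, and the groups overlapped. Ligands alone summed to 784, 944 and 834 CPM in knockouts, against 782, 897 and 928 CPM in controls, and also overlapped. Receptors alone summed to 1789, 1732 and 1758 CPM in knockouts, against 1814, 1798 and 1800.1 CPM in controls. Every knockout sum of the receptors lay below every control sum, and the ratio of the means was 0.976, with no test run on it. The receptor sums averaged 1760 CPM in knockouts and 1804 CPM in controls. Neo1, the receptor of highest CPM, averaged 436 CPM in knockouts and 483 CPM in controls, and its own groups overlapped. The sum is therefore not a lowering shared by the receptors, of which 10 had higher and 11 lower estimates.

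All 5 ephrin-A genes had lower point estimates in knockouts, and none passed the test. The median log2 change was -0.25, and 49.8% of all tested genes had a lower estimate. Summed over the family, ephrin-A transcripts were at 193, 189 and 191 CPM in knockouts A, B and C, against 198, 254 and 224 CPM in controls A, B and C. The knockout sums lay close together and below every control sum, with control A the nearest. Since Efna2 averaged 123 of the family's 191 CPM in knockouts and 146 of its 226 CPM in controls, the sum mostly follows that gene. Of the family's CPM per kilobase, Efna2 held 68.9% ± 2.92 in knockouts and 68.9% ± 3.21 in controls.

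Efna2, an ephrin-A known from the mapping of retinal axons, had 128, 115 and 126 CPM in knockouts A, B and C, against 119.8, 170.4 and 147 CPM in controls A, B and C. The groups overlapped, because control A was among the knockouts and controls B and C stood above them. The log2 change was -0.25 ± 0.12 (SE), with a 95% interval of -0.50 to 0.012 and an adjusted p of 0.728 in edgeR's quasi-likelihood test. With the letter as a block the interval was -0.44 to -0.025, with an adjusted p of 0.344 in the same test. Without control B the log2 change was -0.12. Its gene lies at chr10:80179482-80190010 on the plus strand.

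Efna3, the ephrin-A gene with the smallest p, had 31.7, 39.0 and 31.5 CPM in knockouts, against 37.5, 48.1 and 39.5 CPM in controls. Within each letter the knockout was lower, by log2 differences of -0.24, -0.30 and -0.33 for A, B and C, yet the groups overlapped because letter B was the highest in both genotypes. The fitted log2 change was -0.29 ± 0.13 with a 95% interval of -0.57 to -0.0068 (edgeR's quasi-likelihood test, adjusted p = 0.708, and 0.241 with the letter as a block). Efna3 (chr3:89313899-89322965, minus strand) shares 14.1% of its exon bases with Gm15998 on the other strand, and the counts used here are those of 1 strand.

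Efna5, whose graded expression sorts EphA-bearing thalamic and retinal axons, had 23.6, 23.9 and 24.8 CPM in knockouts, against 28.6, 25.1 and 27.8 CPM in controls. Every knockout lay below every control by a small margin, and the log2 change was -0.17 ± 0.12 with an interval of -0.44 to 0.090. Non-overlapping groups with the knockouts lower were found for 5 guidance genes, against a background of 6.28% of all genes. Efna4 ranged over 6.96 to 9.06 CPM in knockouts and 8.25 to 10.1 CPM in controls. Efna1 ranged over 1.23 to 1.77 CPM in knockouts and 1.61 to 2.21 CPM in controls, on 98 counts in all, and both genes overlapped between genotypes. Efna1, Efna3 and Efna4 lie in a row on chromosome 3, with 10424 bases between Efna4 and Efna3 and 32756 bases between Efna3 and Efna1. Their mean levels differed all the same, at 15.6, 5.45 and 0.923 CPM per kilobase for Efna3, Efna4 and Efna1.

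The ephrin-B ligands showed no difference beyond the spread of their libraries. Efnb3, a midline ligand that keeps corticospinal axons from recrossing, had 321, 479 and 374 CPM in knockouts A, B and C, against 326, 375 and 451 CPM in controls A, B and C. Knockout B was the highest library and knockout A the lowest, so the controls lay inside the knockout range. The log2 change was 0.027 ± 0.15 with a 95% interval of -0.30 to 0.36 in edgeR's quasi-likelihood fit. Efnb1, an X-linked ephrin of cortical progenitors, ranged over 53.2 to 59.8 CPM in knockouts and 54.8 to 61.8 CPM in controls. Efnb2, known from arteries as well as neurons, ranged over 56.4 to 79.9 CPM in knockouts and 61.4 to 81.0 CPM in controls. Its highest library was letter B in both genotypes, at 79.9 CPM in the knockout and 81.0 CPM in the control.

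The Slit genes had higher point estimates in knockouts, with a median log2 change of 0.13 over the 3 genes, and none passed the test. Slit1, which with Slit2 keeps callosal and corticofugal axons from the midline, had 43.3, 35.7 and 39.0 CPM in knockouts A, B and C, against 33.3, 28.2 and 35.4 CPM in controls A, B and C. Every knockout lay above every control, with knockout B and control C close to each other. Groups that do not overlap with the knockouts higher were found for 2 guidance genes, Slit1 and Ntn1, against a background of 5.89% of all genes. For Slit1 the log2 change was 0.28 ± 0.13 with a 95% interval of 0.011 to 0.55 (edgeR's quasi-likelihood test, adjusted p = 0.708, and 0.279 with the letter as a block). The gene lies at chr19:41600257-41743665 on the minus strand. Slit2 ranged over 58.1 to 64.3 CPM in knockouts and 55.0 to 58.2 CPM in controls, with a log2 change of 0.13 ± 0.10 and groups that met at their edges. Slit3 ranged over 1.13 to 2.04 CPM in knockouts and 0.992 to 1.94 CPM in controls, on 91 counts in all. The summed Slit level was 109, 95.8 and 103 CPM in knockouts, against 90.2, 84.1 and 95.5 CPM in controls, and these sums did not overlap. Slit1 held 71.2% ± 1.63 of the family's CPM per kilobase of exon union in knockouts and 68.9% ± 1.51 in controls. That share rests on the 25433-base exon union of Slit2. Per kilobase of the longest coding transcript the means were 6.31 CPM for Slit1 and 5.90 CPM for Slit2.

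Among the netrins, Ntn1 had the largest positive estimate of all the guidance genes, at low counts. Ntn1, which encodes netrin-1, had 5.04, 7.33 and 5.51 CPM in knockouts, against 4.53, 4.34 and 3.67 CPM in controls. The groups did not overlap, knockout B stood highest, and knockouts A and C were nearer to the controls. On 297 counts in all, the log2 change was 0.52 ± 0.24 with a 95% interval of 0.0011 to 1.03 (edgeR's quasi-likelihood test, adjusted p = 0.712, and 0.405 with the letter as a block). On the strand opposite to Ntn1 (chr11:68209364-68400823, minus strand) there were 17, 17 and 12 counts in knockouts A, B and C, and 13, 5 and 6 in controls A, B and C. That is 19.1% of the reads of both strands, where all genes together had 4.95 to 5.40% per library, and the part of those reads in the result was not tested. Ntn4, a netrin of basement membranes, ranged over 1.97 to 3.71 CPM in knockouts and 1.63 to 3.60 CPM in controls. Ntng1, a lipid-anchored netrin that binds Lrrc4c and not DCC, had 34.2, 35.7 and 43.2 CPM in knockouts, against 37.5, 32.4 and 34.0 CPM in controls. Knockout C alone stood above all controls, and the log2 change was 0.12 ± 0.13. Its relative Ntng2 was under the filter, with 0, 2 and 1 counts in knockouts A, B and C, against 0, 0 and 0 counts in controls A, B and C. Of the exon bases of Ntng2, 14.0% are shared with 6530402F18Rik on the same strand, and reads there are ambiguous in the counting.

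**Figure D3:**
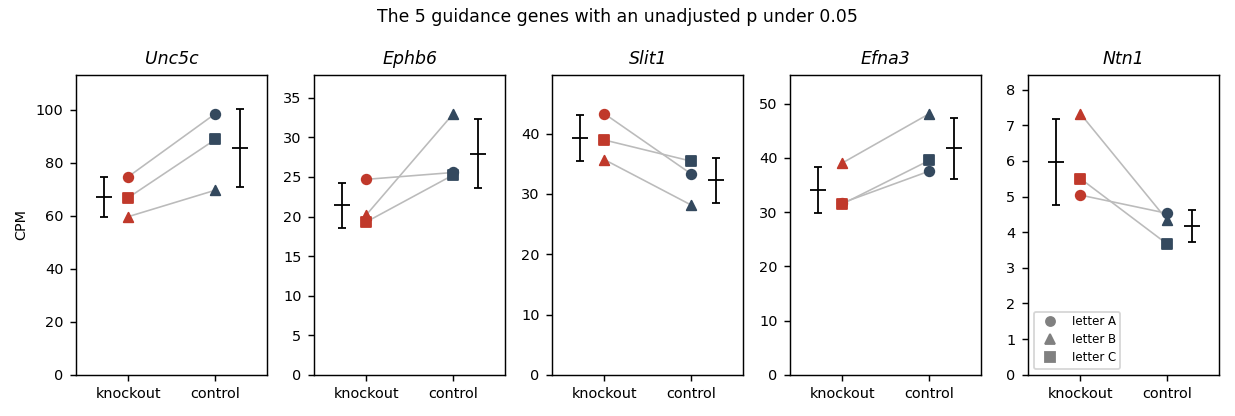
CPM (linear axis from 0) in each library of the 5 guidance genes with an unadjusted p under 0.05, knockout left of control, with letters as marker shapes, grey lines joining the same letter, and the mean ± SD beside each group. All knockouts stand above all controls for Slit1 and Ntn1 and below them for Ephb6, and the groups overlap for Unc5c and Efna3.

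The EphA receptors showed no common direction, with 3 higher and 4 lower estimates among the 7 tested and a median log2 change of -0.11. Epha4, which binds ephrins of both classes and acts in corticospinal and callosal guidance, had 162, 169.5 and 162 CPM in knockouts, against 200, 175 and 157 CPM in controls. The groups overlapped, since control C lay below the knockouts and controls A and B above them. Its log2 change was -0.11 ± 0.11 with an interval of -0.34 to 0.12. Epha5, a receptor for ephrin-A ligands, ranged over 250 to 323 CPM in knockouts and 239 to 263 CPM in controls, with a log2 change of 0.22 ± 0.11. Epha3, a close relative, ranged over 54.7 to 59.1 CPM in knockouts and 42.1 to 54.9 CPM in controls, with a log2 change of 0.24 ± 0.12. In each of these 2 genes the knockout was higher than the control of its letter in all 3 letters. Knockout C alone fell within the control range of either gene. With the letter as a block the intervals were 0.037 to 0.46 for Epha3 and 0.023 to 0.40 for Epha5. The adjusted p in edgeR's quasi-likelihood test with that block was 0.311 for Epha3 and 0.342 for Epha5.

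Epha8 lay below every control in the knockouts, at 18.5 to 23.9 CPM against 25.6 to 29.1 CPM in controls. Its log2 change was -0.28 ± 0.14 with an interval of -0.57 to 0.016. With the letter as a block the interval was -0.54 to -0.025 (edgeR's quasi-likelihood test, adjusted p = 0.356). Epha7, a receptor with a role in the arrangement of cortical projections, ranged over 132 to 143 CPM in knockouts and 137 to 157 CPM in controls. Epha10, which has no kinase activity, averaged 24.5 ± 3.24 CPM in knockouts and 26.7 ± 4.65 CPM in controls (SD, n = 3 each). Neither of these separated the genotypes. Epha6 ranged over 0.926 to 1.45 CPM in knockouts and 0.611 to 1.98 CPM in controls on 63 counts, too few to bound its change. Epha1 and Epha2, receptors known mainly from epithelia, were under the filter. Epha1 had 0, 0 and 2 counts in knockouts A, B and C, against 0, 1 and 1 counts in controls A, B and C. Epha2 had 0, 3 and 3 counts in knockouts A, B and C, against 0, 4 and 1 counts in controls A, B and C. No fold is given for either, as nearly all libraries were at or under the floor of 3 counts. Epha4 held 30.8% ± 1.11 of the EphA CPM per kilobase in knockouts and 32.8% ± 1.83 in controls, and Epha5 25.9% ± 2.37 in knockouts and 22.1% ± 0.394 in controls. These shares are per kilobase of exon union, and Epha5 stood above Epha4 with the longest coding transcript as length.

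The 5 EphB receptors had 2 higher and 3 lower estimates, and the interval of Ephb6 did not reach 0. With the letter as a block that of Ephb3 did not reach 0 either, at 0.024 to 0.48 on the log2 scale. Ephb6, a receptor without kinase activity at chr6:41605482-41620509 on the plus strand, had 24.7, 20.2 and 19.3 CPM in knockouts A, B and C, against 25.6, 33.0 and 25.3 CPM in controls A, B and C. Every knockout lay below every control, though knockout A and controls A and C were within about 1 CPM of each other. The log2 change was -0.38 ± 0.15 with a 95% interval of -0.69 to -0.067 (edgeR's quasi-likelihood test, adjusted p = 0.635, and 0.183 with the letter as a block). Within letters the log2 differences were -0.050, -0.71 and -0.39 for A, B and C, so letter A carried almost none of it.

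Ephb2, which acts in commissural axons and at synapses, had 87.4, 86.7 and 85.3 CPM in knockouts, against 96.1, 93.0 and 92.5 CPM in controls. The groups did not overlap, and the interval of -0.32 to 0.082 on the log2 scale bounds the change within 1.5-fold. Ephb1, the EphB gene of highest level per kilobase, had 121, 132 and 139 CPM in knockouts, against 127, 125 and 127 CPM in controls. Knockout A lay below the controls and knockouts B and C above, with a log2 change of 0.047 ± 0.099. Ephb3, which acts with Ephb2 in the formation of commissures, had 52.5, 31.3 and 43.7 CPM in knockouts, against 41.4, 24.9 and 41.1 CPM in controls. Letter B was low in both genotypes, and within letters the log2 differences were 0.34, 0.33 and 0.088 for A, B and C. Its log2 change was 0.24 ± 0.24 without the block, and its adjusted p was 0.896 in edgeR's quasi-likelihood test and 0.350 with the letter as a block. Without control B the log2 change of Ephb3 was 0.043.

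Ephb4, the receptor that marks venous endothelium, had 2.26, 5.56 and 3.12 CPM in knockouts A, B and C, against 1.51, 6.57 and 5.91 CPM in controls A, B and C. Letter A was lowest in both genotypes, and the log2 change of -0.33 ± 0.54 is not bounded on 238 counts. Summed markers of endothelial cells were 297, 304 and 291 CPM in knockouts A, B and C, against 239, 298 and 266 CPM in controls A, B and C. Summed markers of meningeal fibroblasts were 36.3, 222 and 213 CPM in knockouts A, B and C, against 30.5, 212 and 118 CPM in controls A, B and C, also lowest in letter A in both genotypes. The part of either list in the Ephb4 values was not tested.

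The Robo receptors had 2 higher estimates and 1 lower one. Robo2, the highest of them per kilobase and a Slit receptor of cortical and thalamic axons, had 132, 138 and 121 CPM in knockouts, against 150.5, 120.4 and 113 CPM in controls. The groups overlapped fully, with a log2 change of 0.024 ± 0.12. Robo1, which acts in callosal axons and in interneuron migration, had 42.0, 66.5 and 40.6 CPM in knockouts, against 41.7, 42.2 and 36.3 CPM in controls. Knockout B stood apart from the other 5 libraries, which overlapped. The log2 change was 0.32 ± 0.17 with an interval of -0.059 to 0.69. With the letter as a block the interval was 0.048 to 0.51 (edgeR's quasi-likelihood test, adjusted p = 0.298). Without knockout B the log2 change of Robo1 was 0.048. Robo3, known from commissural axons of the hindbrain and spinal cord, had 2.26, 2.50 and 2.08 CPM in knockouts, against 3.82, 2.85 and 3.56 CPM in controls. Every knockout lay below every control at 165 counts in all, with a log2 change of -0.58 ± 0.28, an interval of -1.18 to 0.018 and an adjusted p of 0.727 in edgeR's quasi-likelihood test. Markers of thalamus and hindbrain summed to 133 to 148 CPM in knockouts and 137 to 174 CPM in controls, with 5 of the 12 listed genes above the filter, and their part in the Robo3 values was not tested.

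Neo1 dominated the DCC family, with 99.1% ± 0.159 of its CPM per kilobase in knockouts and 99.3% ± 0.388 in controls. Neogenin, its product, is a receptor for netrins and for repulsive guidance molecules. Neo1 had 434, 381 and 495 CPM in knockouts A, B and C, against 410.2, 515 and 524 CPM in controls A, B and C. The groups overlapped, with knockout B lowest and control C highest, and the log2 change was -0.15 ± 0.12 with an interval of -0.41 to 0.11. Dcc, the attractive netrin-1 receptor that callosal axons need, had 5.87, 5.84 and 5.19 CPM in knockouts, against 7.25, 4.96 and 3.16 CPM in controls. The controls of Dcc spread more widely than its knockouts, and its log2 change was 0.14 ± 0.27 on 313 counts.

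The UNC5 receptors divided into Unc5a and Unc5c with lower estimates and Unc5b and Unc5d with higher ones. Unc5c, a repulsive netrin-1 receptor, had the smallest p of the guidance genes, with 74.7, 59.6 and 66.8 CPM in knockouts A, B and C, against 98.4, 69.6 and 88.7 CPM in controls A, B and C. The groups overlapped at 1 point, where knockout A exceeded control B, and letter B was the lowest in both genotypes. The log2 change was -0.35 ± 0.13 with a 95% interval of -0.63 to -0.078 (edgeR's quasi-likelihood test, adjusted p = 0.599, and 0.0790 with the letter as a block). Within letters the log2 differences were -0.40, -0.22 and -0.41 for A, B and C, all in the same direction. Unc5c lies at chr3:141465216-141834924 on the plus strand.

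Unc5a, the UNC5 gene of highest level per kilobase, had 24.9, 40.5 and 25.7 CPM in knockouts, against 26.3, 46.1 and 46.5 CPM in controls. The groups overlapped, and the within-letter differences of -0.077, -0.19 and -0.86 on the log2 scale were mostly in letter C. Its log2 change was -0.38 ± 0.28, with an adjusted p of 0.850 in edgeR's quasi-likelihood test and 0.174 with the letter as a block. Without both libraries of letter C the log2 change of Unc5a was -0.14. When strand was ignored in the counting, 37.5% of the 2016 counts of Unc5a were not assigned to it. That share was 45.9, 46.0 and 25.1% in knockouts A, B and C, and 37.5, 37.4 and 31.5% in controls A, B and C. Unc5b, known from endothelial tip cells, ranged over 15.8 to 26.0 CPM in knockouts and 17.6 to 21.8 CPM in controls. Unc5d, a receptor for FLRT proteins on migrating cortical neurons, ranged over 31.4 to 46.7 CPM in knockouts and 31.5 to 35.7 CPM in controls, with knockout B the highest. Svet1, a noncoding transcript within Unc5d on its strand, had 8.85, 8.35 and 12.7 CPM in knockouts, against 9.66, 6.08 and 6.82 CPM in controls, and knockout C rather than B was its highest library.

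**Figure D4:**
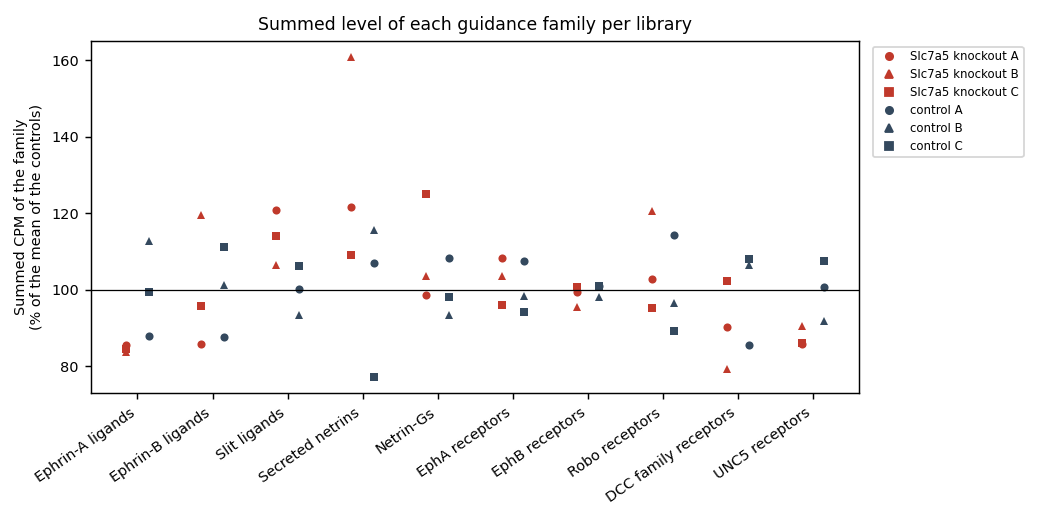
Summed CPM of each guidance family per library as a percentage of the control mean, with knockouts left of controls and the letters as marker shapes. Ephrin-A sums (83.7 to 85.6% in knockouts, 87.8 to 112.7% in controls), Slit sums (106.5 to 120.9% in knockouts, 93.5 to 106.2% in controls) and UNC5 sums (85.7 to 90.6% in knockouts, 91.8 to 107.4% in controls) do not overlap between genotypes, and the sums of the other 7 families do.

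Within letters, 8 guidance genes were higher in the knockout in all 3 letters, where 16.2% of all genes were, and 10 were lower, where 16.8% were. The other 17 had mixed signs. The genes with 1 sign made up 51.4% of the 35, against 33% of all genes. The 8 higher ones were Epha3, Epha5, Ephb3, Slit1, Slit2, Robo1, Ntn1 and Ntn4. The 10 lower ones were Epha7, Epha8, Ephb2, Ephb6, Efna3, Efna5, Efnb2, Robo3, Unc5a and Unc5c. Groups that did not overlap at all were found for 7 genes, 20.0% of those tested, against 12.2% of all genes. No test was made of these shares, since genes of 1 system are not independent of each other.

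**Figure D5:**
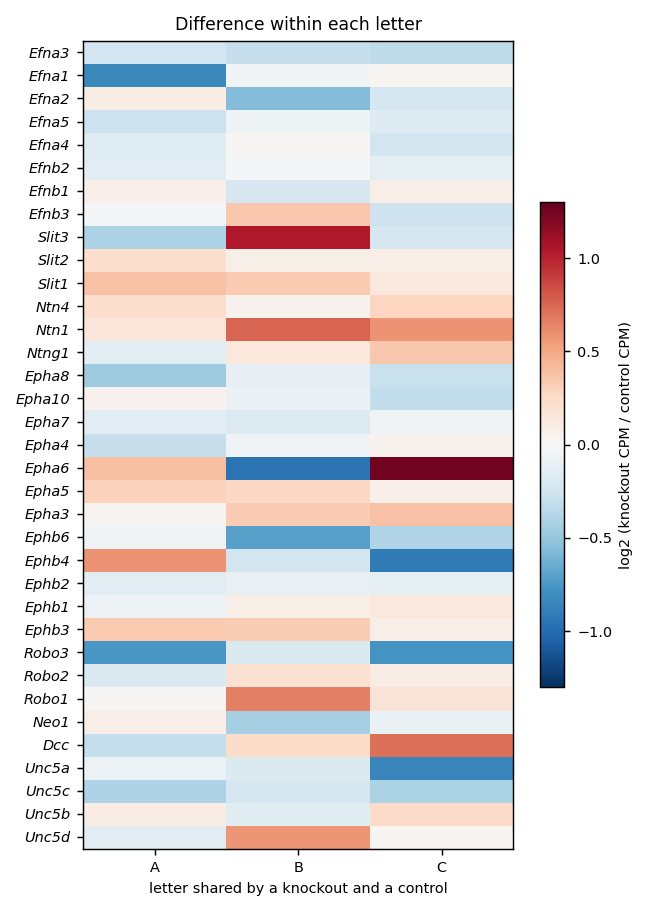
Log2 difference of CPM between the knockout and the control of the same letter (A, B, C) for each tested guidance gene, with red for a higher and blue for a lower knockout. The sign is the same in all 3 letters for 18 genes, 8 higher and 10 lower, and mixed for 17.

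Other genes of these pathways, 66 co-receptors, adaptors, signalling partners and further ligands, were all above the filter, and 0 were called in edgeR's quasi-likelihood test, with 26 higher and 40 lower estimates and a median log2 change of -0.059. At an unadjusted p under 0.05 there were 3, all lower, against a background of 7%, and DESeq2 called 0. With the letter as a block 2 were called lower, where 0.516% of all genes were. These were Trim67, a ubiquitin ligase that binds DCC, and Nell2, a secreted protein that Robo3 binds. Trim67 had 757, 615 and 809 CPM in knockouts A, B and C, against 813, 1059.8 and 1058 CPM in controls A, B and C. Every knockout lay below every control, with knockout C just under control A, and the log2 change was -0.43 ± 0.13 (edgeR's quasi-likelihood test, adjusted p = 0.462, and 0.0444 with the letter as a block). Nell2 had 315, 274 and 217 CPM in knockouts, against 331, 409 and 317 CPM in controls, also without overlap. Its log2 change was -0.39 ± 0.14 (edgeR's quasi-likelihood test, adjusted p = 0.553, and 0.0392 with the letter as a block). Ptpro, a receptor phosphatase that acts on Eph receptors in chick, had 97.7, 91.4 and 87.2 CPM in knockouts, against 107, 119 and 112 CPM in controls, with a log2 change of -0.29 ± 0.099 and an adjusted p of 0.538 in edgeR's quasi-likelihood test. Summed, the partners were at 9647, 9071 and 9462 CPM in knockouts, against 9778, 10407 and 10156 CPM in controls, without overlap. Genes of high level weigh most in this sum. Trim67 averaged 727 CPM in knockouts and 977 CPM in controls, and Cdc42 823 CPM in knockouts and 928 CPM in controls. The sum is therefore not a lowering shared by the 66 genes, of which 26 had higher estimates.

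Markers of the cell types and regions in the sample were summed beside these results. Of 17 lists, 12 overlapped between genotypes, 3 were lower in every knockout and 2 higher. Upper-layer neuron markers summed to 1868 to 2048 CPM in knockouts and 2173 to 2522 CPM in controls, areal patterning genes to 4464 to 4521 CPM in knockouts and 4757 to 5252 CPM in controls, and oligodendrocyte lineage markers to 432 to 482 CPM in knockouts and 538 to 579 CPM in controls. Interneuron markers summed to 2284 to 2651 CPM in knockouts and 2178 to 2219 CPM in controls, and mural cell markers to 137 to 165 CPM in knockouts and 127 to 133 CPM in controls. Pallial genes, which define the labelled tissue, summed to 3087 to 3324 CPM in knockouts and 3103 to 3412 CPM in controls, with 8 of 8 above the filter. Their estimates were 3 higher and 5 lower. None of the 8 was called without the block, where 2 had an unadjusted p under 0.05, both lower, against a background of 7%. With the letter as a block 3 were called lower, Emx1 and Slc17a7 among them, where 0.516% of all genes were. Emx1 had 7.92, 10.9 and 8.21 CPM in knockouts, against 17.1, 25.4 and 13.6 CPM in controls. Cre under Emx1 control was present in the knockouts alone, so the part of the Cre allele in these Emx1 values cannot be told apart. Epha8, Ephb2, Ephb6, Efna5 and Robo3, and the ephrin-A, UNC5, receptor and partner sums, were lower in every knockout than in every control. So were the upper-layer, areal and oligodendrocyte sums. The upper-layer and areal lists share Rorb, Mef2c and Lhx2, so their sums are not independent. Of the 21 areal genes tested, 7 had higher and 14 lower estimates. Slit1, Ntn1 and the Slit sum were higher in every knockout, as were the interneuron and mural sums. Over all genes tested, 6.28% were lower in this way and 5.89% higher, and no such share was computed for sums. The part of cell composition in the guidance values was not tested.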

How the data were processed

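Per the labels' protocols, stranded libraries were prepared from polyadenylated RNA with a Lexogen SENSE kit. The deposited values are raw read counts per gene from STAR 2.5.4, with builds GRCm38 and mm10, per the submitters' processing notes. Which annotation release was used is not given in the sources used here. Counts on the strand of the first read were used. Symbols and exon lengths came from GENCODE M21, which held 52403 of the 52550 identifiers.

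Genes kept by filterByExpr (14913) were fitted in R 4.3.3 with edgeR 4.0.16 (limma 3.58.1), TMM factors 0.979 to 1.04, robust quasi-likelihood F-tests, two-sided, adjusted by Benjamini-Hochberg over all genes at 0.05. DESeq2 1.42.0 was an alternative. The SE is the log2 change divided by the square root of F, and intervals are at 95%. Both are from the fit without the block unless the block is named, since the labels do not explain the letters. Levels per kilobase use the union of exons. Libraries of the same letter deviated together from the mean of their genotype (r across genes of 0.417, 0.342 and 0.211 for A, B and C). Between letters r was at most -0.0310. Deviations from a mean over 3 libraries cancel out, so these negative values add no separate support. The letters were taken to pair libraries by the values within letters, and the labels do not settle it. No replicates agreed within sampling noise (the chi-square statistic was 7.65 to 13.2 times its degrees of freedom). The series' design text calls the 3 samples per genotype biological replicates, and p-values cover the spread between these samples, and floors counting error only.

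Full values were given by rule for guidance genes with an unadjusted p under 0.05, for the highest per kilobase in each family and for those under the filter, and for pathway partners with an unadjusted p under 0.05. Efna5, Ephb2, Ephb3, Ephb4, Robo1, Robo3 and Dcc were added after their values were seen. The members and lists were chosen with earlier results of these data known. Alternatives covered the block, tool, scaling, filter, strand and libraries left out.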

Additional observations from a re-analysis of the deposited data

How the results depend on the processing

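Under each of 14 alternatives, 0 guidance genes passed the threshold, and the lowest adjusted p was 0.0790 (Unc5c, replicate block). With the letter as a replicate block the pathway partners called were 2 in place of 0, and the median log2 change of the guidance genes was -0.022. Leaving out libraries or letters moved that median between -0.089 and -0.00055, the ligand median between -0.12 and 0.033 and the receptor median between -0.10 and -0.016. Estimates of 14 genes changed sign when libraries were left out, and none of their main values exceeded 0.18 in size: Epha4 ranged over -0.19 to 0.0033, Epha6 -0.42 to 0.77, Epha10 -0.23 to 0.011, Ephb1 -0.0038 to 0.11, Efnb1 -0.078 to 0.078, Efnb2 -0.25 to 0.030, Efnb3 -0.16 to 0.19, Slit3 -0.29 to 0.35, Robo2 -0.061 to 0.16, Ntn4 -0.089 to 0.43, Ntng1 -0.0030 to 0.25, Dcc -0.12 to 0.48, Unc5b -0.079 to 0.27 and Unc5d -0.054 to 0.31. The other 21, the ephrin-A genes among them, kept their sign under all alternatives, though Efna1 came to -0.00055, Ephb4 to -0.0025, Neo1 to -0.0030 and Efna4 to -0.012. With the longest coding transcript as length, chosen after seeing the data, 9 levels rose over 1.5 times, Epha5 passed Epha4 and 13 of 38 ranks held. Depth limits Epha6, Slit3 and Efna1, with 63, 91 and 98 counts.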

Other observations

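Counts on the strand opposite to Epha1 outnumbered those on its own strand, with 5, 5 and 5 in knockouts A, B and C and 3, 1 and 2 in controls A, B and C, against 4 on its own strand in all. Its exons share 6.01% of their bases with Zyx on the other strand. Hk3, which shares 0.816% of the exon bases of Unc5a on the other strand, had 13 counts over the 6 libraries.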
